A study of Mus musculus with 3 samples.

Results

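Immune checkpoints are pairs of surface molecules through which one cell restrains another. PD-L1, encoded by Cd274, engages PD-1 (Pdcd1) on T cells, and CTLA-4 (Ctla4) competes with the stimulatory receptor CD28 for CD80 and CD86. TIGIT (Tigit), LAG-3 (Lag3), TIM-3 (Havcr2) and VISTA (Vsir) are further inhibitory receptors, and VISTA also acts as a ligand. CD47 on a target cell binds SIRPα (Sirpa) on myeloid cells and gives a signal against being engulfed, which is why this pair is much studied in leukemia. The 9 genes named here were chosen as a list of ligands and receptors by name, out of 32285 genes in the count matrices. The choice was made with earlier results of these data known. All 9 had UMIs (unique molecular identifiers, each standing for 1 captured transcript) in at least 1 cell class.

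The study profiled peripheral blood of BALB/c mice by droplet single-cell RNA sequencing with 10x Genomics 3′ version 3 reagents, on blood from which red cells had been lysed and dead cells taken out. There were 3 libraries, 1 for each condition: a naive wild-type mouse sample, and leukemic samples taken on day 11 (D11) and day 14 (D14) after engraftment of BBC2 cells. BBC2 is 1 cell line, derived from hematopoietic stem cells that carry the BCR-FGFR1 fusion kinase, and it causes a stem cell leukemia/lymphoma syndrome (SCLL) of pro-B-like cells in hosts that keep their own immune system. All mice were labelled wild type, and the number of mice behind each library is not given in the sources used here. With 1 library a condition no difference between libraries could be tested. Every interval below is a 95% interval that covers counting error only, and mouse, library and disease cannot be told apart. Intervals of levels and ratios treat each UMI as independent, although several can come from 1 cell. They leave out the spread between cells of a library and can be too narrow.

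After filtering, 3811 naive, 4567 D11 and 4414 D14 barcodes were kept, with a median of 6031 to 6781 UMIs. Hemoglobin transcripts took 2.42% of the naive UMIs, 37.4% of those at D11 and 11.8% of those at D14. Barcodes were placed in 12 classes by the number of marker genes they showed, and 5.69% to 8.74% of them met several gates and were left out. From 12 to 18 barcode sequences were shared between any pair of libraries, and 3 to 5 of these passed the filters in both. Classes are called by the cell type of their markers with the ending "-like". Examples of the markers are the CD3 chains for T-like, Ncr1 and Klrb1c for NK-like, Vpreb1 and Igll1 for pro-B leukemia-like, and Ace and Treml4 for non-classical monocyte-like cells. In the 8 classes described here every marker of a class was detected in it at D11 and D14.

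Pro-B leukemia-like cells numbered 3 in naive blood, 89 at D11 and 653 at D14, and T-like cells numbered 1224, 254 and 100. NK-like cells numbered 178, 168 and 51, classical monocyte-like cells 116, 194 and 66, and non-classical monocyte-like cells 118, 186 and 587. Classes with under 50 cells in a library, such as the 41 B-like cells of D14, were not compared.

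In the GRCm38 (mm10) assembly, with GENCODE vM21 gene models, Cd274 lies on chromosome 19 from 29367455 to 29388095 on the plus strand. Pdcd1 lies on chromosome 1 from 94038305 to 94052553 on the minus strand and Ctla4 on the same chromosome from 60887000 to 60915832 on the plus strand. Tigit (43648867 to 43664146, minus) and Cd47 (49800533 to 49915010, plus) are both on chromosome 16. Lag3 is on chromosome 6 (124904361 to 124911705, minus), Havcr2 on chromosome 11 (46454935 to 46481255, plus), Vsir on chromosome 10 (60346851 to 60372684, plus) and Sirpa on chromosome 2 (129592835 to 129632228, plus). Sirpa belongs to a family with near-identical Sirpb1 copies that could share its reads, so its level is uncertain. Levels are the share of a class's UMIs that came from the gene, as counts per 1e6 UMIs (CPM). They are compared between classes and libraries for one gene, never between genes.

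**Figure D1:**
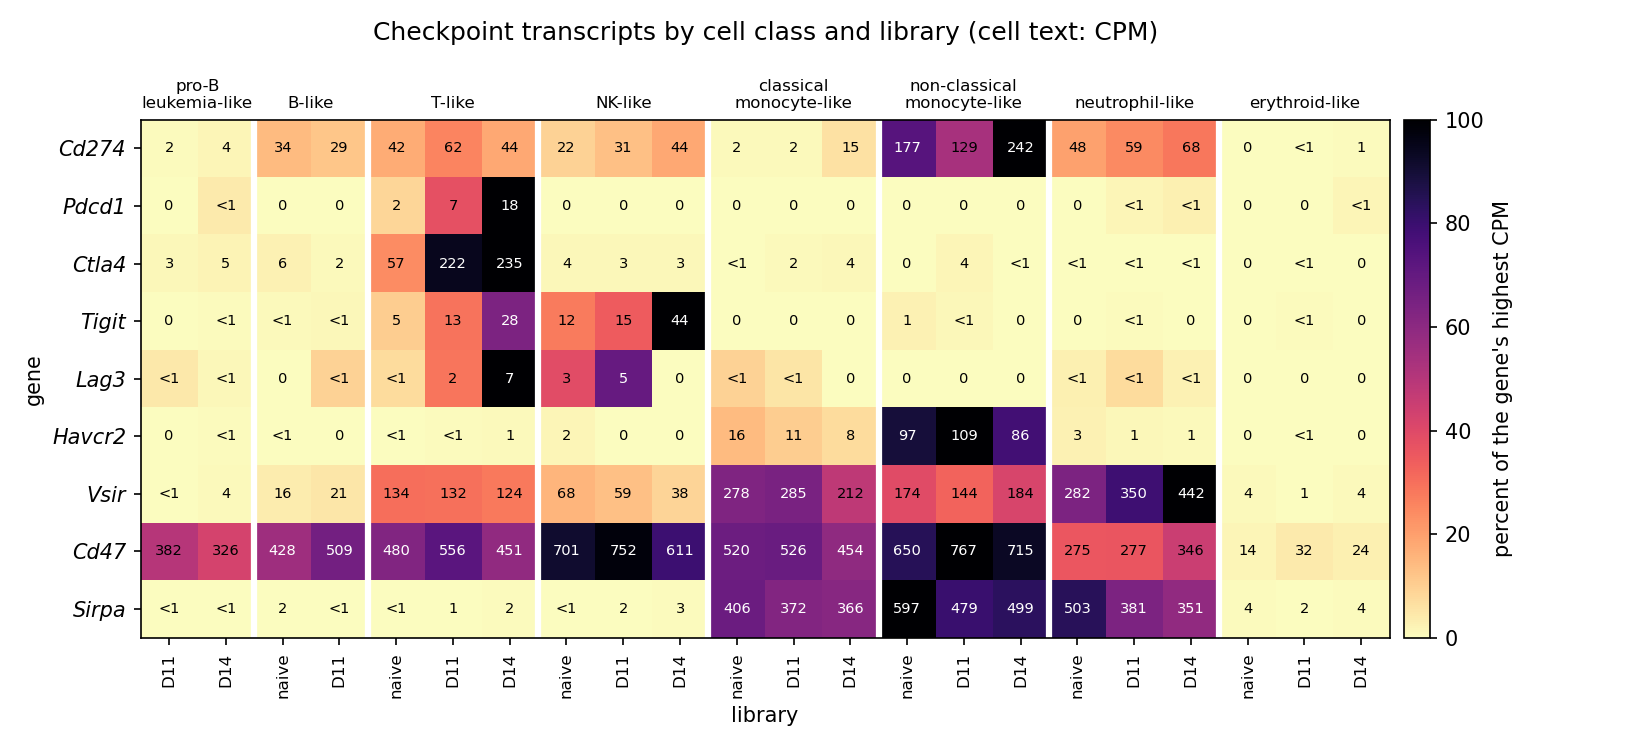
Level of the 9 checkpoint genes in each cell class (blocks) and library (columns) with at least 50 cells; each cell prints the CPM and its color gives the percent of that gene's own highest CPM. Pdcd1, Ctla4 and Lag3 were highest in T-like cells of D14, Cd274 in non-classical monocyte-like cells of D14, and Vsir in neutrophil-like cells of D14.

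Cd274, the PD-1 ligand, was highest in the non-classical monocyte-like cells of every library and low in the leukemia-like cells. In non-classical monocyte-like cells its level was 177 CPM (interval 151 to 206) in naive blood, 129 CPM (112 to 148) at D11 and 242 CPM (230 to 255) at D14. The D11 level thus lay below the naive level and the D14 level above both. The ratio of D14 to naive was 1.37 (1.17 to 1.62), that of D11 to naive 0.730 (0.593 to 0.900), and that of D14 to D11 1.88 (1.62 to 2.18). The D14 value did not rest on a few cells, since 464 of 587 cells held a Cd274 UMI and the 10 cells with most of them held 7.58% of the UMIs.

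Pro-B leukemia-like cells held 5 Cd274 UMIs in 89 cells at D11 (1.65 CPM, 0.534 to 3.84) and 87 in 653 cells at D14 (4.15 CPM, 3.32 to 5.12). Levels in erythroid-like cells, which serve here as a gauge of free RNA, were 0.361 CPM at D11 and 1.35 CPM at D14. In CPM the leukemia-like cells stood above that gauge, by a ratio of 3.08 (1.50 to 7.37) at D14, and far below the other lymphoid classes. The gauge is lowered in CPM, since erythroid markers took 894625 CPM of the erythroid-like UMIs at D14. Counted per cell at D14, leukemia-like cells held 0.133 Cd274 UMIs against 0.00821 in erythroid-like cells, at median depths of 30869 and 6115 UMIs. NK-like cells held 0.294 and T-like cells 0.360. At D11 the level in B-like cells was 28.5 CPM (20.6 to 38.4), 17.3 times (6.87 to 56.0) that of the leukemia-like cells. The gap was smaller per cell, with 0.174 UMIs in B-like and 0.0562 in leukemia-like cells, at median depths of 5460 and 34735 UMIs. The level in non-classical monocyte-like cells was 78.4 times (33.1 to 244) that of the leukemia-like cells at D11 and 58.4 times (47.0 to 73.4) at D14.

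At D14 the order of Cd274 levels ran from non-classical monocyte-like cells through neutrophil-like cells (68.2 CPM, 61.6 to 75.3), T-like cells (43.8 CPM, 30.7 to 60.6) and NK-like cells (43.8 CPM, 24.5 to 72.3) to classical monocyte-like cells (14.9 CPM, 9.23 to 22.8) and leukemia-like cells. The NK-like interval overlapped those of neutrophil-like and T-like cells, so these neighbours are not separated by counting error. Both monocyte classes differed in every library. The ratio of non-classical to classical monocyte-like cells was 86.9 (29.2 to 426) in naive blood, 54.9 (24.8 to 151) at D11 and 16.3 (10.6 to 26.3) at D14.

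In classical monocyte-like cells Cd274 was at 2.04 CPM (3 UMIs) in naive blood, 2.35 CPM (6 UMIs) at D11 and 14.9 CPM (21 UMIs) at D14. The D14 UMIs came from 13 of 66 cells, and 5 lay in 1 cell. Neutrophil markers moved with this difference: their summed level in the class was 387 CPM in naive blood, 1892 CPM at D11 and 5451 CPM at D14, with 11 to 12 of 12 markers detected, and their part in the difference was not tested. The non-classical markers summed to 441, 460 and 445 CPM, but the median number of them per classical monocyte-like cell was 2 in the naive library and 3 in both leukemic ones, and 4 in the D14 cells that held Cd274. Their part was not tested either. The cells with at most 3 of the 11 non-classical markers, a split made after the values were seen, were 88 of 116 in the naive library and 35 of 66 at D14. They held 2 of the 3 naive Cd274 UMIs and 5 of the 21 D14 ones (6.78 CPM, 2.20 to 15.8).

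**Figure D2:**
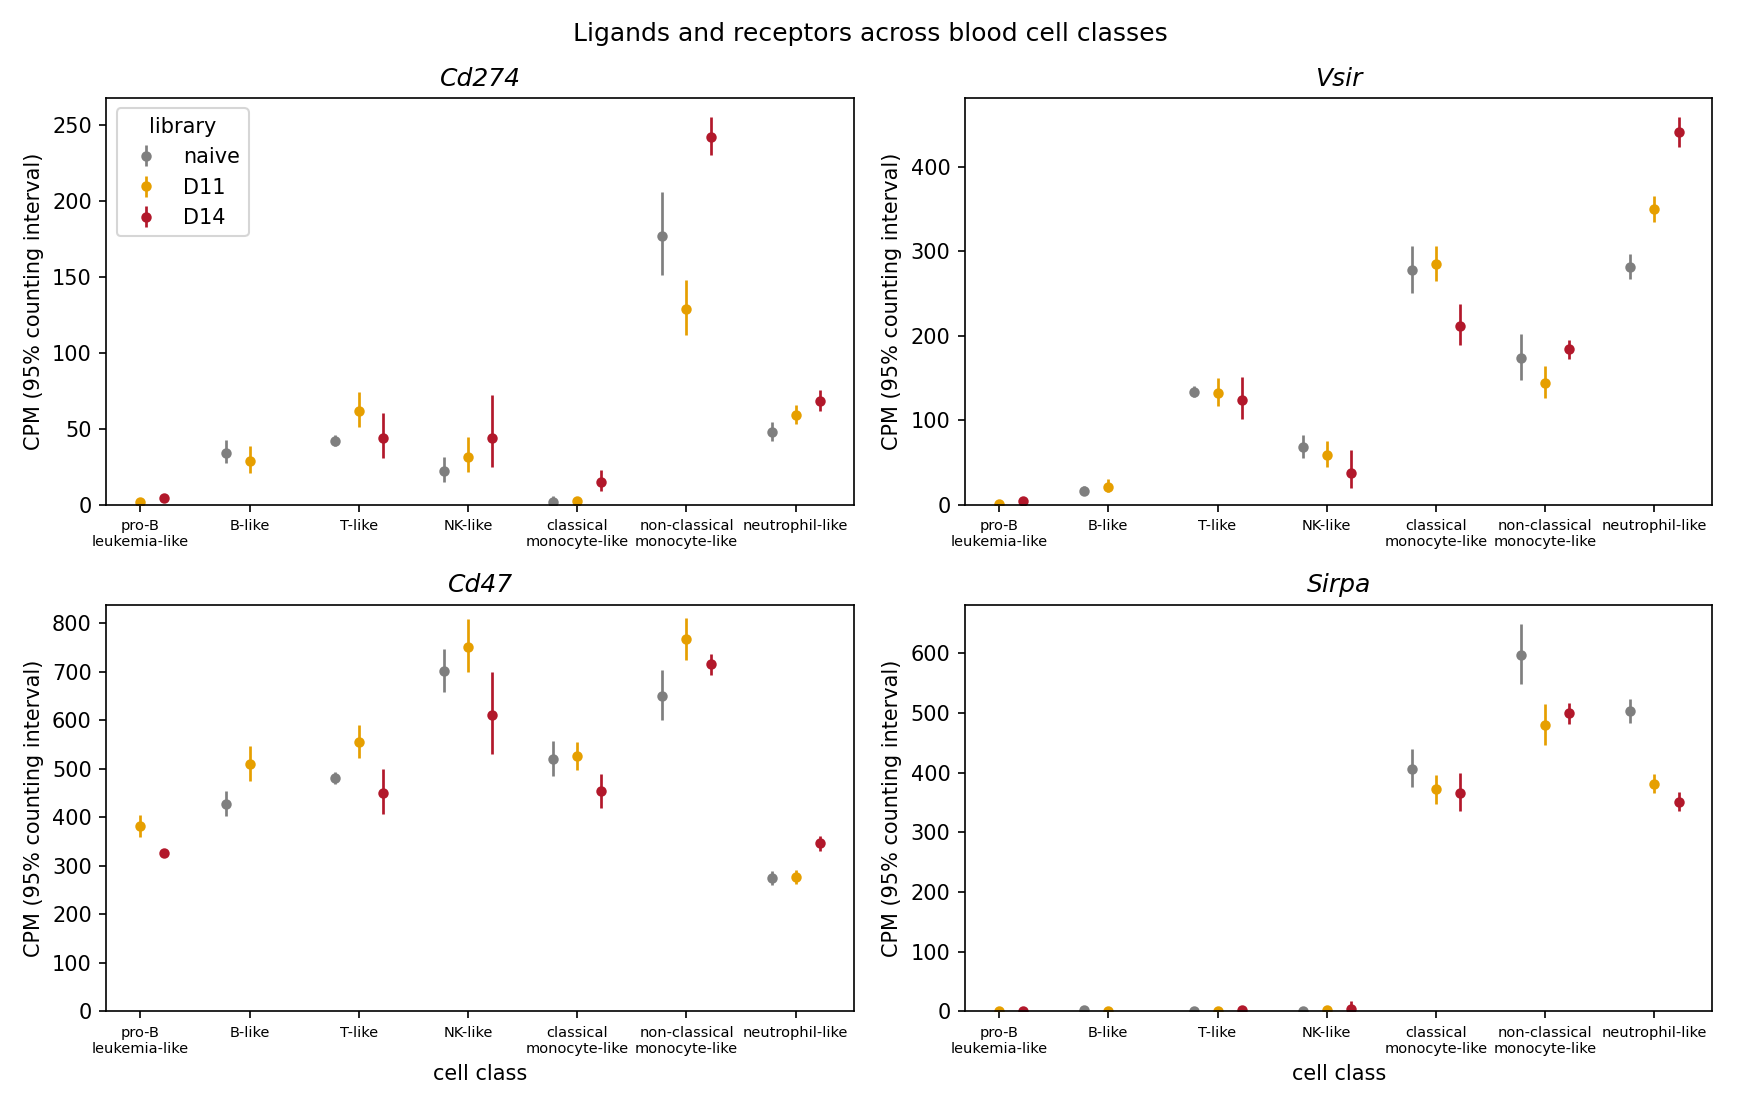
CPM of Cd274, Vsir, Cd47 and Sirpa (panels, each with its own axis from 0) in 7 cell classes and 3 libraries; points are the level of the summed UMIs and bars the 95% counting interval. Cd274 stands out in non-classical monocyte-like cells, Cd47 is present in every class, and Sirpa is near 0 outside the 3 myeloid classes.

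Because class sizes differed so much between libraries, the cells that supplied the Cd274 UMIs of the blood differed too. T-like cells held 40.2% of all Cd274 UMIs in naive blood, 11.7% at D11 and 1.53% at D14. Non-classical monocyte-like cells held 14.1%, 20.9% and 59.9%, and neutrophil-like cells 18.7%, 34.0% and 16.4%. The leukemia-like cells held 3.69% at D14, although they were 14.8% of the kept barcodes. These shares depend on cell numbers in the libraries, and alone they do not tell fewer cells of a class from less RNA per cell. Counted per cell, Cd274 UMIs in the naive, D11 and D14 libraries were 0.388, 0.461 and 0.360 in T-like cells. They were 1.42, 1.12 and 2.41 in non-classical monocyte-like cells, and 0.178, 0.226 and 0.313 in neutrophil-like cells.

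**Figure D3:**
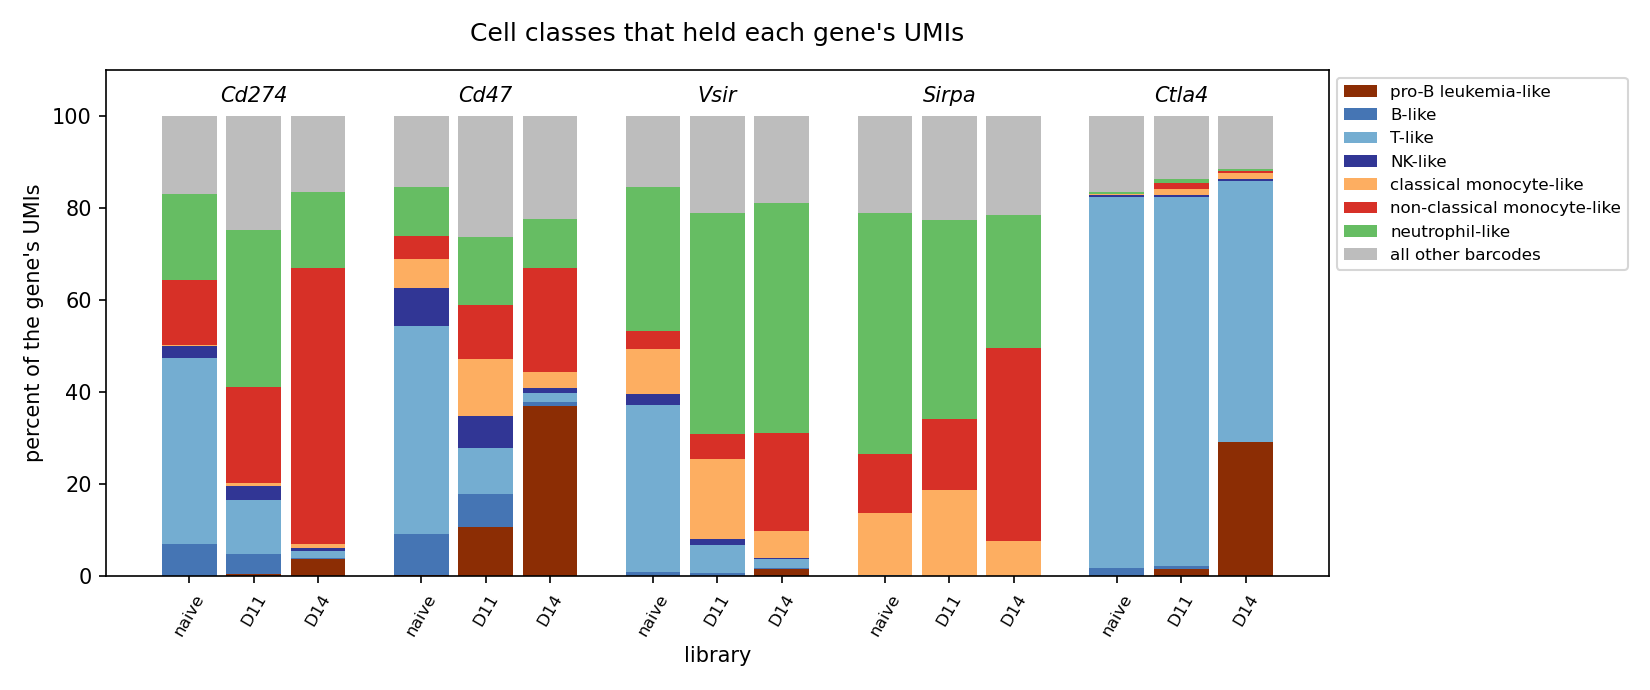
Percent of each gene's UMIs (vertical axis) held by each cell class (colors) in the naive, D11 and D14 libraries; gray gives all other kept barcodes, those that met several gates included. Non-classical monocyte-like cells held 59.9% of the Cd274 UMIs at D14, and pro-B leukemia-like cells held 37.0% of the Cd47 UMIs. Of the 51192755 kept UMIs of all genes at D14, these classes held 5824521 and 20968778.

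Pdcd1, the receptor of Cd274, had few UMIs and was highest in T-like cells. Its level there was 1.51 CPM (17 UMIs, 0.877 to 2.41) in naive blood, 6.86 CPM (13 UMIs, 3.65 to 11.7) at D11 and 18.2 CPM (15 UMIs, 10.2 to 30.1) at D14. Both leukemic intervals lay above the naive one and overlapped each other. The D11 to naive ratio was 4.56 (2.03 to 9.96) and the D14 to naive ratio 12.1 (5.63 to 25.8). The naive UMIs lay in 17 of 1224 T-like cells (1.39%, 0.811 to 2.21) and the D11 ones in 6 of 254 (2.36%, 0.872 to 5.07). These 2 intervals overlapped, so the D11 ratio rests on few cells with several UMIs. The D14 UMIs lay in 7 of 100 T-like cells, against 2 of 975 erythroid-like cells (median depths 7611 and 6115 UMIs). Erythroid markers took 894625 CPM of the UMIs in the latter, so the 2 classes are not matched in depth for other genes. With every cell thinned to 1000 UMIs only 2, 1 and 0 T-like cells held a Pdcd1 UMI in the naive, D11 and D14 libraries, so the share of cells gives no order at a matched depth. In the CD8 cells without a Foxp3 UMI 10 UMIs came from 3 cells at D14 (41.4 CPM, 19.8 to 76.0), against 1 UMI in 206 cells of the naive library (0.471 CPM, 0.0119 to 2.63). In the CD4 cells without one, 3 UMIs came from 2 cells at D14 (12.2 CPM, 2.51 to 35.5). The naive library had 6 UMIs in 654 such CD4 cells (0.996 CPM, 0.365 to 2.17). No UMI of Pdcd1 was found in NK-like cells of any library, where 0 of 51 cells at D14 allows a share of up to 5.88% of cells with a UMI and sets no limit on cells that express the gene, nor in either monocyte class.

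The second PD-1 ligand, Pdcd1lg2 (PD-L2), followed Cd274 in non-classical monocyte-like cells at a lower count, with 29.7 CPM (28 UMIs), 22.9 CPM (37 UMIs) and 61.5 CPM (358 UMIs) in the naive, D11 and D14 libraries. The ratio of D14 to naive was 2.07 (1.41 to 3.16). The interferon-response regulator Irf1, which acts upstream of Cd274 in many cells, gave a D14 to naive ratio of 1.33 (1.12 to 1.59) in the same class. Cmtm6, which stabilises PD-L1 at the surface, gave 0.993 (0.681 to 1.49). In leukemia-like cells of D11 the CPM ratios to B-like cells were 0.304 (0.226 to 0.406) for Irf1 and 0.252 (0.163 to 0.384) for Cmtm6. As shares of transcripts both genes were thus lower there, as was Cd274. Of all genes compared between these classes, 21.3% were at least 2-fold lower and 30.6% higher. Median depths were 34735 UMIs in leukemia-like and 5460 in B-like cells, so these ratios do not give the order per cell. Whether either gene plays a part in the Cd274 level was not tested.

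Ctla4 was higher in T-like cells of both leukemic libraries than in naive ones. In T-like cells it was at 56.5 CPM (638 UMIs, 52.2 to 61.1) in naive blood, 222 CPM (420 UMIs, 201 to 244) at D11 and 235 CPM (193 UMIs, 203 to 270) at D14. The naive interval lay below both leukemic ones, which overlapped each other. The D11 to naive ratio was 3.92 (3.46 to 4.44), and for D14 it was 4.15 (3.52 to 4.89). With every cell thinned to 1000 UMIs, 50 of 1221 T-like cells (4.10%) held a Ctla4 UMI in naive blood, 33 of 253 at D11 and 12 of 100 at D14, against 14.9%, 29.9% and 33.0% of cells without thinning. Without thinning, 9 of 1254 erythroid-like cells held one at D11. Erythroid-like cells, with median depths of 6115 to 11196 UMIs against 6990.5 to 9062.5 in T-like cells, gave at most 0.0798% of thinned cells. Erythroid markers took 894625 to 912525 CPM of their UMIs, which leaves few UMIs for other genes after thinning. The low share is thus no matched background.

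CTLA-4 is carried constitutively by regulatory T cells, whose defining factor is Foxp3, and the share of T-like cells with a Foxp3 UMI differed between the libraries in the same direction. It was 7.84% (6.40 to 9.49) in naive blood, 17.7% (13.2 to 23.0) at D11 and 20 of 100 cells (12.7% to 29.2%) at D14. These cells held 57.4% of the Ctla4 UMIs of T-like cells in naive blood, 63.1% at D11 and 81.3% at D14. Within them the Ctla4 level was 372 CPM (335 to 412), 604 CPM (533 to 681) and 755 CPM (641 to 882), a D14 to naive ratio of 2.03 (1.67 to 2.45) from 96, 45 and 20 cells. Within the T-like cells without a Foxp3 UMI it was 26.4 CPM (23.3 to 29.7), 106 CPM (90.3 to 125) and 58.6 CPM (41.0 to 81.1), a ratio of 2.22 (1.52 to 3.15) at D14. The difference in the whole class was thus larger than the difference within either group of cells at D14, while at D11 the ratio in cells without a Foxp3 UMI, 4.03 (3.29 to 4.93), was as large as in the whole class. The cells without a Foxp3 UMI can include regulatory cells whose Foxp3 was not captured. Markers of other classes were also higher in the leukemic T-like cells, with summed erythroid markers at 500, 7583 and 3600 CPM and neutrophil markers at 105, 138 and 430 CPM, in which Ctla4 was at most 0.869 CPM in their own classes. In erythroid-like cells that CPM is lowered by the erythroid markers themselves. The part of such RNA in the Ctla4 levels was not tested.

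Tigit, which competes with the stimulatory receptor CD226 for Pvr, was found in T-like and NK-like cells alone above 2 CPM. In T-like cells it was at 4.52 CPM (51 UMIs, 3.36 to 5.94) in naive blood, 12.7 CPM (24 UMIs, 8.11 to 18.8) at D11 and 28.0 CPM (23 UMIs, 17.7 to 42.0) at D14. In NK-like cells it was at 12.0 CPM (17 UMIs, 7.01 to 19.3), 15.2 CPM (15 UMIs, 8.49 to 25.0) and 43.8 CPM (15 UMIs, 24.5 to 72.3). The D14 interval lay above the naive one in both classes, with ratios of 6.19 (3.61 to 10.3) and 3.64 (1.69 to 7.76). The D11 interval lay above naive in T-like cells and overlapped it in NK-like cells. The ratio of D14 to naive for Tigit was 4.36 (1.82 to 10.4) in T-like cells with a Foxp3 UMI and 4.86 (2.24 to 9.70) in those without. Among those without, it was 10.7 (3.72 to 27.4) in CD4 cells, from 7 UMIs at D14. In CD8 cells it was 1.46 (0.276 to 5.01), from 3 UMIs, and included no change.

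Lag3, a receptor for MHC class II, was at 0.531, 2.11 and 7.30 CPM in T-like cells, from 6, 4 and 6 UMIs. The D14 to naive ratio of 13.7 (3.67 to 51.4) rests on those few UMIs, and 4 of the 6 D14 UMIs lay in 1 CD8 cell. NK-like cells held 4, 5 and 0 UMIs of Lag3, and no difference was detectable at this depth. Havcr2 was barely detected in T-like cells, with 3, 1 and 1 UMIs.

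**Figure D4:**
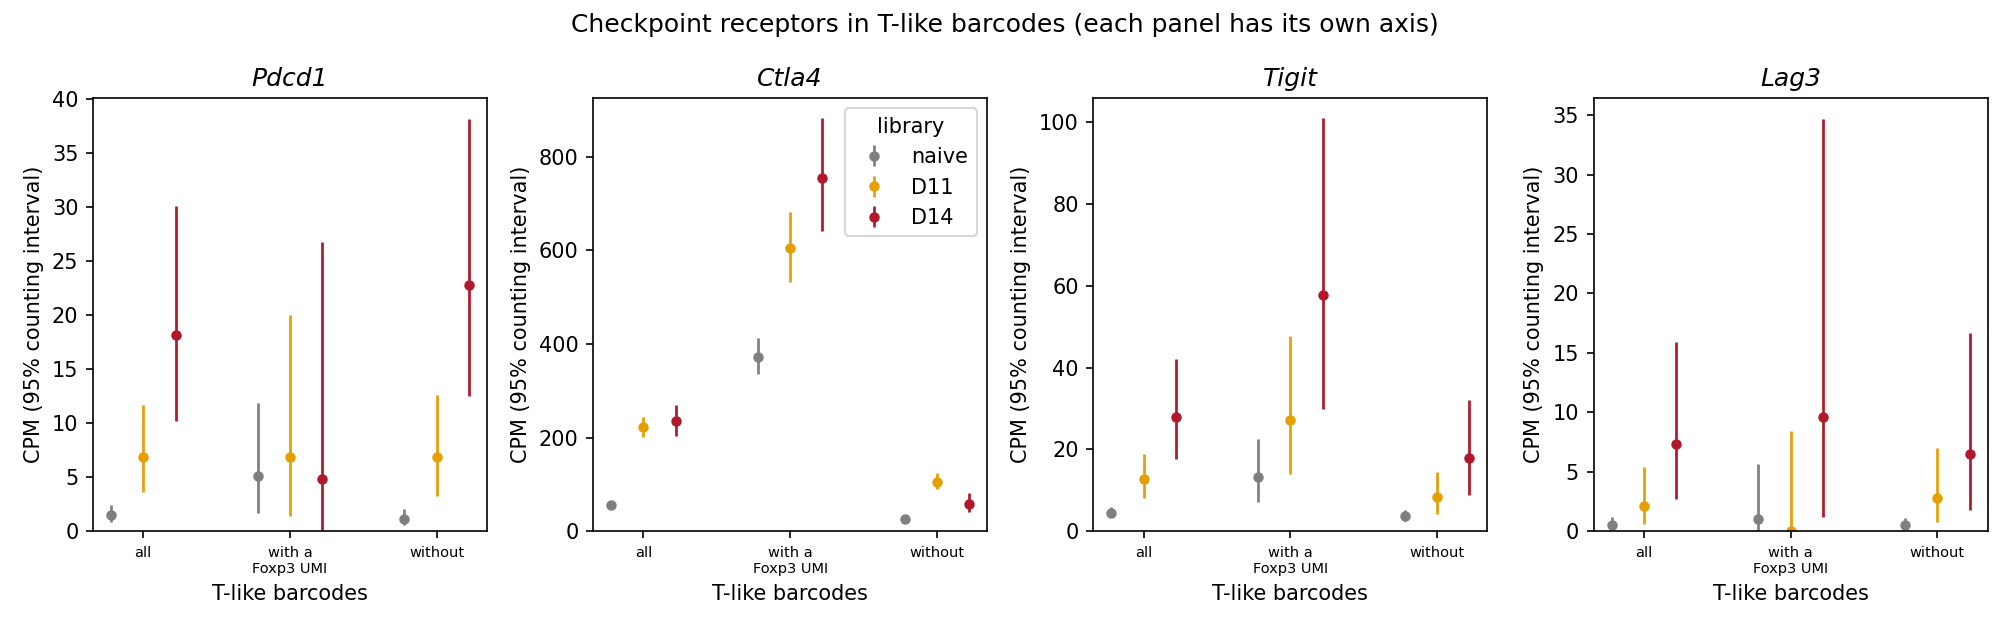
CPM of Pdcd1, Ctla4, Tigit and Lag3 (panels, each with its own axis from 0) in all T-like barcodes and in those with and without a Foxp3 UMI; points give the naive, D11 and D14 libraries and bars the 95% counting interval. Ctla4 reached 755 CPM in D14 cells with a Foxp3 UMI, and most Pdcd1 UMIs of D14 lay in cells without one.

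Of the 9 genes, 4 reached the minimum level of 20 CPM in the naive or D11 T-like cells and 5 in the naive or D14 ones. Ctla4 alone was at least 2-fold higher at D11, and Ctla4 and Tigit at D14, with none 2-fold lower. Over all genes at that level 4.63% were 2-fold higher and 0.852% lower at D11, and 5.90% were higher and 2.18% lower at D14. Of 45 further checkpoint and costimulation genes, 24 reached the level in T-like cells and 6 were 2-fold higher in each comparison, with none lower. At D14 these were Icos, Cd200r1, Lgals3, Tnfrsf9, Tnfrsf4 and Tnfrsf18, with D14 to naive ratios of 4.45 (3.77 to 5.23) for the costimulator Icos, 4.71 (3.13 to 6.93) for Tnfrsf4 (OX40) and 2.49 (1.92 to 3.19) for Tnfrsf18 (GITR). The median log2 ratio of the 24 genes was 0.30 at D11 and 0.19 at D14, beside 0.07 and 0.08 over all genes at the level. Cd28 was lower, at 435 CPM in the naive library and 281 CPM at D14, with a ratio of 0.645 (0.563 to 0.736).

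In NK-like cells 4 of the 9 genes reached the level at D14 or in the naive library, and Tigit alone was 2-fold higher, beside 5.41% of all genes higher and 5.29% lower. Its competitors for the same ligands, Cd226 and Cd96, gave D14 to naive ratios of 0.805 (0.628 to 1.02) and 1.39 (0.930 to 2.03) in those cells. The ligand Pvr was low everywhere, at most 15.8 CPM, in T-like cells, and was at 5.91 CPM in leukemia-like cells of D14. Nectin2, a further ligand, had at most 8 UMIs in any class.

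Havcr2, which marks exhausted T cells but is also carried by myeloid cells, was here highest in the non-classical monocyte-like cells, at 97.4 CPM (78.5 to 119), 109 CPM (93.8 to 127) and 85.5 CPM (78.2 to 93.4) in the naive, D11 and D14 libraries. The D14 to naive ratio of 0.878 (0.701 to 1.11) included no change. The level was 6.24 times (3.92 to 10.3) that of classical monocyte-like cells in the naive library and 10.9 times (6.06 to 22.1) at D14. Its ligand Lgals9 (galectin-9) was highest in the leukemia-like cells, at 323 CPM at D11 and 254 CPM at D14. The D11 level was 7.07 times (5.54 to 9.16) that of B-like cells. In classical monocyte-like cells Lgals9 was at 126, 73.7 and 44.7 CPM, with a D14 to naive ratio of 0.355 (0.262 to 0.474), and in non-classical ones at 25.4, 15.4 and 12.7 CPM, with an interval of the ratio from 0.312 to 0.829.

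Vsir was broad among host leukocytes and low in leukemia-like cells. It was at 0.988 CPM (3 UMIs) in leukemia-like cells of D11 and 3.96 CPM (83 UMIs) at D14, the latter beside 3.70 CPM in erythroid-like cells, a ratio of 1.07 (0.662 to 1.80). Counted per cell the D14 leukemia-like cells held 0.127 Vsir UMIs against 0.0226 in erythroid-like cells, at median depths of 30869 and 6115 UMIs, so the 2 scales differ on whether they stand above that background. In T-like cells it was at 134, 132 and 124 CPM, with a D14 to naive ratio of 0.925 (0.749 to 1.13). In classical monocyte-like cells it was at 278 CPM (251 to 306), 285 CPM (265 to 307) and 212 CPM (189 to 238), a D14 to naive ratio of 0.765 (0.657 to 0.890). In non-classical monocyte-like cells the ratio was 1.06 (0.897 to 1.25). In neutrophil-like cells the level was 282 CPM (267 to 297), 350 CPM (335 to 366) and 442 CPM (424 to 459), with no overlap between any pair of libraries, and the D14 to naive ratio was 1.57 (1.47 to 1.68). Its partner Selplg (PSGL-1) went the other way in the same cells, at 690, 605 and 513 CPM, a ratio of 0.744 (0.707 to 0.782).

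The neutrophil-like cells differed between libraries in their secondary granule transcripts, which mark immature neutrophils. The summed level of Ltf, Camp and Ngp was 2312 CPM in naive blood, 6612 CPM at D11 and 13236 CPM at D14, and the share of cells with a UMI of any of these genes was 6.62%, 28.7% and 68.1%. The class was therefore split by these UMIs, after the values were seen. In cells with a granule UMI Vsir was at 260 CPM (214 to 314) in naive blood, 421 CPM (394 to 448) at D11 and 480 CPM (460 to 501) at D14. In cells without one it was at 284 CPM (268 to 300), 306 CPM (288 to 325) and 293 CPM (263 to 325), a D14 to naive ratio of 1.03 (0.912 to 1.16).

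Cd274 showed the opposite split. In neutrophil-like cells without a granule UMI it was at 47.0 CPM (40.7 to 54.0), 73.3 CPM (64.6 to 82.8) and 175 CPM (152 to 200), a D14 to naive ratio of 3.72 (3.04 to 4.54), where the whole class gave 1.43 (1.21 to 1.69). In cells with a granule UMI it was at 56.3 CPM (36.1 to 83.8), 36.8 CPM (29.2 to 45.6) and 40.4 CPM (34.7 to 46.7). At D14 the level without a granule UMI was 4.33 times (3.53 to 5.32) that with one, while in the naive library the ratio of 0.835 (0.545 to 1.33) included no difference. Of the cells without a granule UMI, 140 of 1157 held Cd274 in the naive library (12.1%, 10.3 to 14.1). At D14 it was 62 of 395 (15.7%, 12.3 to 19.7), at median depths of 3482 and 2857 UMIs. These intervals overlapped. The 140 naive cells held 197 UMIs and the 62 D14 cells 206, so the share of cells differed less than the level. The cells without a granule UMI were shallower, with a median of 2857 UMIs against 4815 at D14, and free granule RNA puts some mature cells in the other group, so the split is not a sort of the 2 stages.

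**Figure D5:**
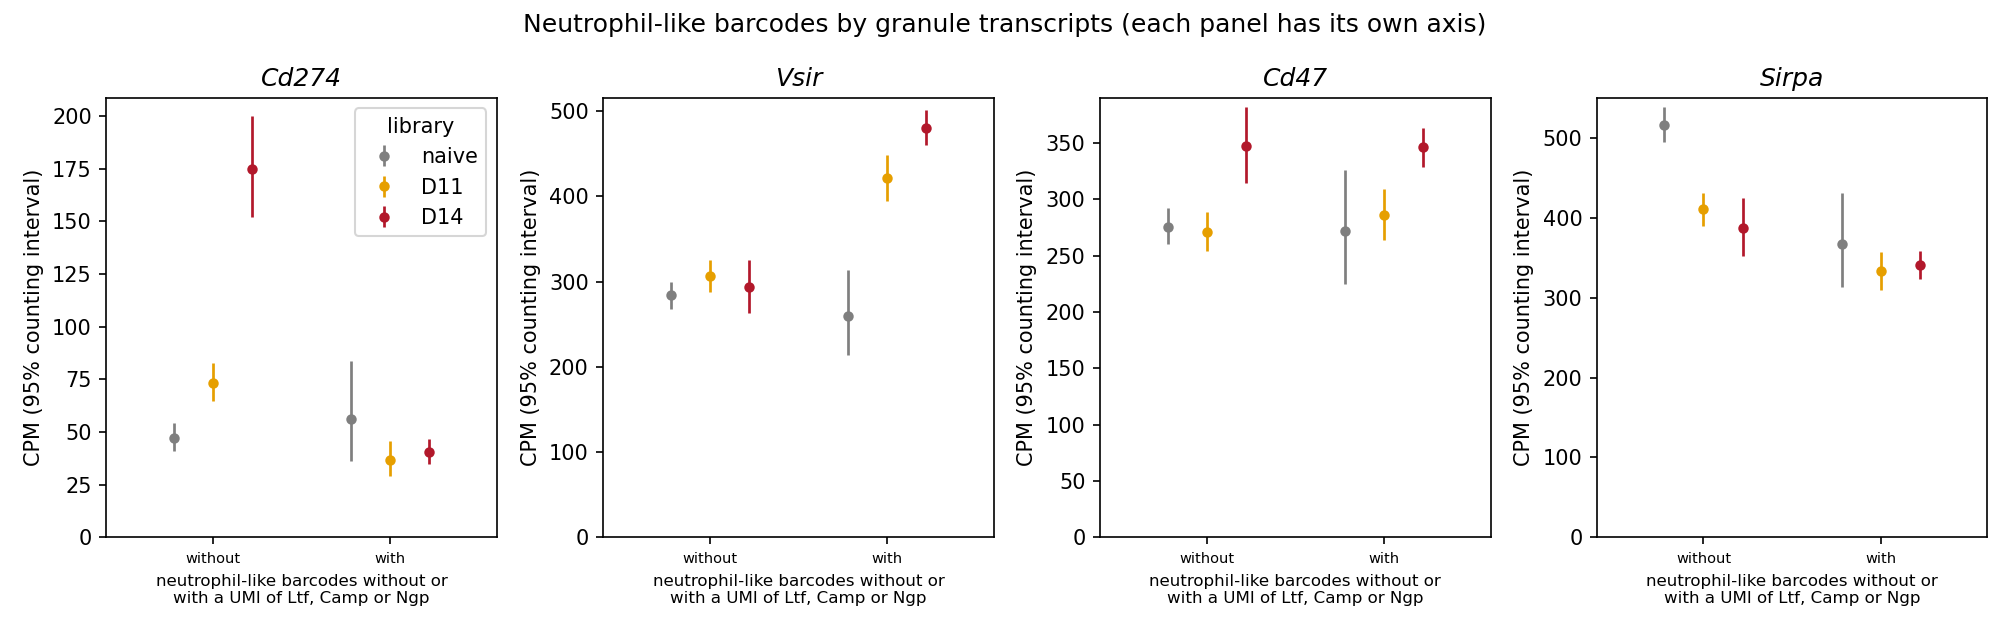
CPM of Cd274, Vsir, Cd47 and Sirpa (panels, each with its own axis from 0) in neutrophil-like barcodes without and with a UMI of Ltf, Camp or Ngp; points give the naive, D11 and D14 libraries and bars the 95% counting interval. Cd274 reached 175 CPM at D14 in cells without such a UMI, and Vsir 480 CPM in cells with one.

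Cd47 was present in every nucleated class. As a share of transcripts it was lower in leukemia-like cells than in the B-like and T-like cells compared with them. It was at 382 CPM (360 to 404) in leukemia-like cells of D11 and 326 CPM (318 to 334) at D14. Neutrophil-like cells stood below the leukemia-like cells at D11, at 277 CPM (263 to 291). At D14 they were at 346 CPM (331 to 362), and the intervals overlapped. At D11 the B-like cells stood at 509 CPM (474 to 546), and the ratio of leukemia-like to B-like cells was 0.750 (0.684 to 0.822). Against T-like cells the D11 ratio was 0.687 (0.631 to 0.747) and the D14 ratio 0.722 (0.650 to 0.804). Counted per cell the order turned, since leukemia-like cells held a median of 34735 UMIs at D11 against 5460 in B-like cells: 89 leukemia-like cells held 1159 Cd47 UMIs, while 247 B-like cells held 768, or 3.11 a cell. At D14 the leukemia-like cells held 10.5 a cell, against 3.71 in T-like cells. Which of both scales matters to a macrophage was not measured, and the amount of CD47 protein was not analysed here.

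Among host cells Cd47 was highest in NK-like cells, at 701, 752 and 611 CPM, and in non-classical monocyte-like cells, at 650 CPM (600 to 704), 767 CPM (725 to 811) and 715 CPM (694 to 737). Most differences between libraries were small. The D14 to naive ratio was 1.10 (1.01 to 1.20) in non-classical monocyte-like cells, 0.873 (0.785 to 0.971) in classical ones, 0.939 (0.843 to 1.04) in T-like cells and 0.871 (0.747 to 1.01) in NK-like cells. Neutrophil-like cells were at 275, 277 and 346 CPM, a ratio of 1.26 (1.17 to 1.35), and gave the same ratio of 1.26 (1.12 to 1.41) without a granule UMI and 1.27 (1.05 to 1.55) with one. Red cells are known to carry CD47 protein. Erythroid-like barcodes held 13.5 to 32.2 CPM of the transcript, the lowest level of the 8 classes. Erythroid markers took 894625 to 912525 CPM in these barcodes, which lowers the CPM of every other gene in them. Counted per cell, erythroid-like barcodes held 0.127 to 0.355 Cd47 UMIs, against 1.03 to 1.59 in neutrophil-like cells.

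Sirpa, the receptor of CD47, was confined to the 3 myeloid classes among those compared, with at most 2.92 CPM in leukemia-like and lymphoid classes and 3.87 CPM in erythroid-like cells. Non-classical monocyte-like cells were at 597 CPM (549 to 649) in naive blood, 479 CPM (446 to 514) at D11 and 499 CPM (481 to 517) at D14. Neutrophil-like cells were at 503 CPM (483 to 524), 381 CPM (365 to 397) and 351 CPM (336 to 367), and classical monocyte-like cells at 406 CPM (375 to 440), 372 CPM (348 to 396) and 366 CPM (335 to 399). The naive interval lay above the leukemic ones in the first 2 of these classes and overlapped them in the last. The D14 to naive ratios were 0.835 (0.762 to 0.915), 0.697 (0.657 to 0.741) and 0.900 (0.798 to 1.01). With TMM factors, which take the bulk of genes as unchanged, the first of these was -0.06 on the log2 scale in place of -0.26. In neutrophil-like cells without a granule UMI the ratio was 0.750 (0.677 to 0.830), and in those with one 0.927 (0.786 to 1.10). Sirpb1a, a related gene with a close sequence, was lower in the same classes, with ratios of 0.363 (0.308 to 0.429) in non-classical, 0.461 (0.353 to 0.598) in classical monocyte-like and 0.467 (0.427 to 0.512) in neutrophil-like cells, and reads could be split between both genes.

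At D14 the leukemia-like cells held 37.0% of all Cd47 UMIs and 0.116% of Sirpa UMIs. Of the 51192755 kept UMIs of all genes, these cells held 20968778, non-classical monocyte-like cells 5824521 and neutrophil-like cells 5689379. The share of Cd47 UMIs in leukemia-like cells is thus no sign of enrichment. The myeloid classes held both sides of the pair, with 22.5% of Cd47 and 42.0% of Sirpa UMIs in non-classical monocyte-like cells and 10.7% and 28.9% in neutrophil-like cells. Of Pdcd1 UMIs, 35.7% lay in the 100 T-like cells and 35.7% in the 653 leukemia-like cells, where 15 UMIs came from 9 cells at 0.715 CPM (0.400 to 1.18). Ctla4 showed a similar trace in leukemia-like cells of D14, with 99 UMIs in 79 cells at 4.72 CPM (3.84 to 5.75), where erythroid-like cells held 0 UMIs. Erythroid markers took 894625 CPM of the UMIs in the latter, so that 0 is no matched background. The T markers summed to 661 CPM in those leukemia-like cells, with 9 of 10 detected, and to 5354 CPM in T-like cells. Lef1 alone gave 469 CPM of the first sum and 1003 CPM of the second, so the first rests mostly on 1 gene. The part of T-like RNA in these traces was not tested.

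In the monocyte and neutrophil-like classes no gene of the 9 that reached 20 CPM differed 2-fold between naive and D14, and Cd274 in classical monocyte-like cells stayed under that level. This held for 3 genes in classical monocyte-like cells, beside 7.09% of all genes higher and 4.89% lower, and for 5 in non-classical ones, beside 3.64% and 3.76%. It held for 4 in neutrophil-like cells, beside 7.19% and 11.7%. The median log2 ratio of those 4 in neutrophil-like cells was 0.42, where the median of all genes at the level was -0.27, and in the other 2 classes it was -0.20 and 0.08 beside 0.06 and -0.00. Of the 45 further genes, 23 reached the level in non-classical monocyte-like cells, with Pdcd1lg2 and Pirb 2-fold higher at D14 and Lgals9 and Sirpb1a 2-fold lower. Pirb, an inhibitory receptor for MHC class I, gave a D14 to naive ratio of 2.34 (1.87 to 2.97) there. Cd80, a ligand of CTLA-4, was at 44.5, 29.7 and 86.4 CPM in non-classical monocyte-like cells, with a D14 to naive ratio of 1.94 (1.42 to 2.73), while neutrophil-like cells were at 204, 148 and 97.4 CPM, with 0.478 (0.430 to 0.531). Cd86 gave 0.805 (0.655 to 0.997) and 0.401 (0.306 to 0.523) in the same classes.

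Between leukemia-like and B-like cells of D11, 3 of the 9 genes reached the level, and Cd274 and Vsir were 2-fold lower in the leukemia-like cells. That comparison is between cells of different origin, and 30.6% of all genes were 2-fold higher and 21.3% lower. Of the 45 further genes, 25 reached the level, 6 were higher and 15 lower. Higher were the ligands Lgals9, Hmgb1 and Selplg, together with Cd24a, Slamf7 and Calr, and Cd24a, whose product binds Siglec-10-like receptors, gave a ratio of 5.89 (5.18 to 6.72). Lower were Cd80, with 3 UMIs in leukemia-like cells, and Cd86, with 1 UMI.

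The genes whose pattern over the 22 class sums of at least 50 cells was most like that of each gene were found by Pearson's correlation of log2(CPM + 10), as a description over sums that share libraries and depth. Of 6922 genes, Foxp3 was the closest to Ctla4 (0.990), followed by Adam12 (0.982) and Neb (0.981). Outside T-like cells Ctla4 was at most 5.69 CPM and Foxp3 at most 0.392 CPM in these sums. Both lie below the 10 CPM added, so their likeness rests mostly on the T-like sums. Ace was the closest to Havcr2 (0.991), where Ace and the third in order, Pparg, are markers that defined the non-classical class. Fgd4, Ltbr and Il13ra1 were closest to Sirpa (each 0.996), and Mkln1 and Gak to Cd47 (each 0.983). The closest to Cd274 were Crebl2 (0.923) and Mthfs (0.919), and to Vsir Hpcal1 (0.958), Fam129a (0.957) and Tnfaip8l2 (0.953).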

How the data were processed

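The authors deposited 1 filtered gene by barcode matrix of UMI counts for each of 3 libraries, made with Cell Ranger on mm10 (version 7.1.0 in the submitters' processing notes, 5.0.1 in the matrix headers). The deposited counts sum to 30362408 UMIs in 5386 naive barcodes, 57640396 in 8536 at D11 and 65861863 in 9337 at D14. Barcodes showing under 200 genes or over 10% of UMIs from mitochondrial genes were left out. A barcode entered a class when it showed a set number of its listed markers (for example 5 of 10 for T and 6 of 11 for non-classical monocytes) and met no other gate. The members, the gene lists and the markers were chosen with earlier results of these data known, and the number of markers needed was set after their distribution per barcode was seen. No doublet caller was used for the main values, but barcodes that met several gates were left out.

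UMIs were summed per class and library. Levels carry exact Poisson intervals, ratios exact conditional binomial intervals and shares Clopper-Pearson intervals at 95%, all two-sided and for counting error only. A count of 0 was given the limit that 3 counts allow. Genes were counted as different at 2-fold where they reached 20 CPM in either library. Likeness was computed for members with at least 50 CPM in some class sum, and the 3 closest genes were kept. The named genes are the 9 members, their partners in the list of 45 and the closest genes. Other genes named were chosen after their values were seen. Cells were thinned to 1000 UMIs without replacement, and 0 value columns belonged to samples outside the series. The interval and gate code was tested on simulated counts. Alternatives were other filters, Scrublet through scanpy 1.11.5, Leiden clusters (leidenalg 0.10.2), stricter gates, TMM factors (edgeR 4.0.16), other CPM denominators and a mean of per-cell CPM. Python 3.11.15 and scipy 1.17.1 were used. One gene of the list of 45 is counted in it but not reported here.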

Additional observations from a re-analysis of the deposited data

Results flagged for a closer look

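Results were picked out here where the interval of a gene's ratio to the naive library lay above 1 in one class and below 1 in another. The difference between classes was not tested, since each condition is 1 library. For Cd274 the D11 to naive ratio was 1.47 in T-like and 1.24 in neutrophil-like cells and 0.73 in non-classical monocyte-like cells. For Vsir the D14 to naive ratio was 1.57 in neutrophil-like and 0.765 in classical monocyte-like cells, and the neutrophil value was 1.03 in cells with no granule UMI. For Cd47 the D14 to naive ratio was 1.26 in neutrophil-like cells and 1.1 in non-classical monocyte-like cells, against 0.873 in classical ones.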

How the results depend on the processing

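The 17 ratios of the main comparisons (D14 to naive in both monocyte classes and in T-like cells, leukemia-like to B-like cells at D11) were recomputed under 8 alternatives, in 136 values. Of these, 129 stayed within the counting interval and none changed direction where the interval had excluded no change. Outside it on the log2 scale were, with joint clusters, Ctla4 in T-like cells at 1.69, Havcr2 in classical monocyte-like cells at 0.18 (where the direction differed from the value given) and Cd47 of leukemia-like against B-like cells at -0.24. With TMM factors Cd47 in non-classical monocyte-like cells was at 0.34, Sirpa there at -0.06 and Cd47 of leukemia-like against B-like cells at -0.64. With a mean of per-cell CPM Ctla4 in T-like cells was at 1.72. TMM factors moved every D14 to naive log2 ratio by 0.21 in non-classical monocyte-like, 0.29 in neutrophil-like, -0.14 in classical monocyte-like and -0.15 in T-like cells.

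The other 158 ratios, those in neutrophil-like and NK-like cells among them, gave 1237 values, of which 1171 stayed within their interval. Another 60 lay outside it, and 6 changed direction on the log2 scale where the interval had excluded no change. With TMM factors these were Cd47 of D14 over D11 in non-classical monocyte-like cells (0.03), Sirpa of D14 over D11 in erythroid-like cells (-0.09) and Vsir of non-classical over classical monocyte-like cells at D14 (0.05). With a mean of per-cell CPM they were Sirpa of D14 over D11 in neutrophil-like cells (0.02) and Cd274 of D14 over D11 in erythroid-like cells (-0.16). In neutrophil-like cells with no granule UMI, chosen after the data were seen, Vsir of D14 over D11 was -0.06. Of 1539 levels recomputed 1341 stayed within their interval, and of 585 shares 405 did. No paired analysis was possible because each condition is 1 library. Depth limits the genes with few UMIs, such as Pdcd1, Tigit, Lag3 and Havcr2 in T-like cells.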

Other observations

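Barcodes with under 200 genes, left out above, held few UMIs of these genes. Cd47 was at 11.8 CPM in 1064 such naive barcodes, 11.2 CPM in 3407 at D11 and 19.5 CPM in 3493 at D14, and Cd274 was at 2.23, 0.254 and 1.31 CPM. Irf1 in neutrophil-like cells with no granule UMI was at 395 CPM (376 to 414) in the naive library, 544 CPM (520 to 569) at D11 and 617 CPM (573 to 663) at D14, beside 47.0, 73.3 and 175 CPM of Cd274.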
